A study of Rattus norvegicus with 4 samples.

Results

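Low-S100a neutrophils carrying transcripts of interferon-induced genes made up 2987 of the 36892 cells kept from 4 libraries of rat skin. The cells were chosen by transcript counts, in unique molecular identifiers (UMIs, 1 per captured RNA molecule). A cell was kept with at least 500 UMIs, at least 250 genes and at most 20% mitochondrial UMIs. Of its UMIs, under 0.3% came from the keratin genes Krt5 and Krt14, under 0.3% from the collagen and decorin genes of fibroblasts, and fewer than 3 UMIs from the complement C1q genes of macrophages. At least 0.5% came from the neutrophil genes G0s2, Il1r2, S100a8 and S100a9, but under 1% from S100a8 and S100a9. These steps gave 8051 low-S100a neutrophils, and the 2987 with 2 or more UMIs of Ifit2, Ifit3 and Isg15 are called signature cells here. The other 5064 are called low-S100a neutrophils without the signature, and 3593 neutrophils with S100a8 and S100a9 at 1% or more are called high-S100a neutrophils. Because these counts chose the cells, the 16 genes of the rule are described without a test and stay out of every count of genes called. Those of them that passed the filter on low counts remain in the numbers of genes tested. Col1a2, one of them, was not matched in the deposited gene list.

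The study injected purified migrasomes, membrane-bound organelles shed along the trails of moving cells, into a rat skin wound-healing model. The injected group had 2 libraries and the uninjected group, which received nothing, had 2. All tissue was collected at day 4, digested with enzyme, strained and treated to lyse red cells before droplet capture. The labels used here name no strain, sex or age. An effect of injecting anything cannot be told apart from one of migrasomes. The labels do not say that replicates were separate animals, so each p-value reflects library-to-library spread, which may be technical.

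Neutrophils are short-lived phagocytes that enter wounds early, and S100a8 and S100a9 encode calprotectin, an abundant protein of their cytosol. Type I and type III interferons act through JAK kinases and a complex of transcription factors that binds an interferon-stimulated response element in the promoters of its targets. Those targets include the IFIT proteins, which bind viral RNA, ISG15, a ubiquitin-like protein joined to other proteins, and IRF7, which amplifies interferon output. NF-kB drives a partly separate program in neutrophils that includes the chemokines Cxcl1 and Cxcl3.

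The promoters of several genes of this signature carry the core of that response element. The 5 shown all hold a match, and genes of the results below that hold none are named after them. Each runs from 250 bases before to 50 bases after the gene's start, 5′ to 3′ on the gene's strand, from RefSeq on the GRCr8 build. Capitals mark GAAANNGAAA, searched on both strands, so that TTTCNNTTTC is the same motif on the other strand.
Ifit3: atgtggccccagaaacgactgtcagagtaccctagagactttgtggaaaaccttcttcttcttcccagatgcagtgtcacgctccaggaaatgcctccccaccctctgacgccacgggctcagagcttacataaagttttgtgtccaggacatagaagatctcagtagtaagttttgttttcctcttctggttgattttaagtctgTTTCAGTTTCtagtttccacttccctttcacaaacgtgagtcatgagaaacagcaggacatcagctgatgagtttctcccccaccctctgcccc
Irf7: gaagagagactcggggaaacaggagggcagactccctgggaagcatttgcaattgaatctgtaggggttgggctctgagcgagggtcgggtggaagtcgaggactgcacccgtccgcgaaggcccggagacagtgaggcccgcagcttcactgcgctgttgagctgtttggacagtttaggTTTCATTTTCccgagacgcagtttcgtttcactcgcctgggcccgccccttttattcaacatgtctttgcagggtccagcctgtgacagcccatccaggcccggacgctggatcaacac
Samd9: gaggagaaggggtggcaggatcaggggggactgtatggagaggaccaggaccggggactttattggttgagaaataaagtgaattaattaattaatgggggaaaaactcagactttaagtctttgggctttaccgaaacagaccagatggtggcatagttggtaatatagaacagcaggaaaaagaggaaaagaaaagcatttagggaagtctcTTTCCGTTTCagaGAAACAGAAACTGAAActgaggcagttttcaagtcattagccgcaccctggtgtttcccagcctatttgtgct
Igtp: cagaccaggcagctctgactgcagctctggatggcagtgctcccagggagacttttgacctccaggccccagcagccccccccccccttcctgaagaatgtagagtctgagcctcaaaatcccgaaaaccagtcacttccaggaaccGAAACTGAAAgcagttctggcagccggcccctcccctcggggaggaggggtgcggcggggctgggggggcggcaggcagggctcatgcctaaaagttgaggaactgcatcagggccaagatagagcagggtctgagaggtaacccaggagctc
Oas1a: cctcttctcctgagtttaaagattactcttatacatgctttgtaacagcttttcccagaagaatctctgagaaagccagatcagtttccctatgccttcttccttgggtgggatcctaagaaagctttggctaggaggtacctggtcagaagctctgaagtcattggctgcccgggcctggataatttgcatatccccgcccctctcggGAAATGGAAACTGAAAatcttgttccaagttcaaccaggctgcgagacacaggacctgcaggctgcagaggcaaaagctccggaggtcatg
Ifit3 lies at chr1:241527076-241527375 on the plus strand with its match starting at position -44 from the gene's start. Irf7 lies at chr1:205799974-205800273 on the minus strand with its match at -69, and Igtp at chr10:42874797-42875096 on the plus strand with its match at -103. Samd9, at chr4:32138909-32139208 on the minus strand, held 3 matches, 2 of them overlapping, and Oas1a, at chr12:41330216-41330515 on the plus strand, held 2 overlapping matches. The motif was present in 3.92% of all 33469 promoters of the table and in 3.22% of the 4902 that belonged to genes tested between signature cells and low-S100a neutrophils without the signature. Of the genes higher in signature cells in that test, 61 had a promoter in the table and 18 held the motif, 29.5%. Of the genes lower, 76 had one and 3 held it, 3.95%. Herc6, Ifit1bl, Cmpk2, Oasl and Psmb9 had no match in this window. Of the 3 interferon-induced genes of the rule only Ifit3 had a promoter in the table, so Ifit2 and Isg15 could not be searched. The cells of that test were split by UMIs of Ifit2, Ifit3 and Isg15, which are interferon-induced themselves. That split favours other targets of the response element, so the 29.5% is no independent support for the signature. A match is a description of these letters only.

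The number of signature cells differed widely between libraries of 1 group. Uninjected 1 held 188, uninjected 2 held 1122, injected 1 held 1440 and injected 2 held 237. As a share of low-S100a neutrophils this was 9.61% (95% Wilson interval 8.38 to 11.0) in uninjected 1 and 50.4% (48.3 to 52.5) in uninjected 2. It was 47.5% (45.7 to 49.2) in injected 1 and 28.4% (25.4 to 31.5) in injected 2. These intervals cover counting error only. Both injected libraries lay between the 2 uninjected ones.

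The same order held after depth was made equal by drawing 1000 UMIs from each cell and leaving out shallower cells. The share with at least 2 UMIs of the 3 interferon-induced genes was then 7.73% in uninjected 1 (857 of its low-S100a neutrophils left out), 45.0% in uninjected 2 (231 left out), 40.8% in injected 1 (526 left out) and 23.3% in injected 2 (113 left out). The injected mean was 32.0% ± 12.4 (SD, n = 2) and the uninjected mean 26.3% ± 26.3 (SD, n = 2). The difference of 5.70 percentage points was smaller than the spread between replicates, with an exact two-sided permutation p of 1.0, where 2 against 2 cannot go below 0.333. Leaving out 1 library turned its direction: it was -12.9 points without uninjected 1 and -3.08 without injected 1, against 24.3 without uninjected 2 and 14.5 without injected 2. High-S100a neutrophils had higher shares in every library, 16.7%, 54.7%, 63.7% and 40.8% in uninjected 1, uninjected 2, injected 1 and injected 2, again lowest in uninjected 1.

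**Figure D1:**
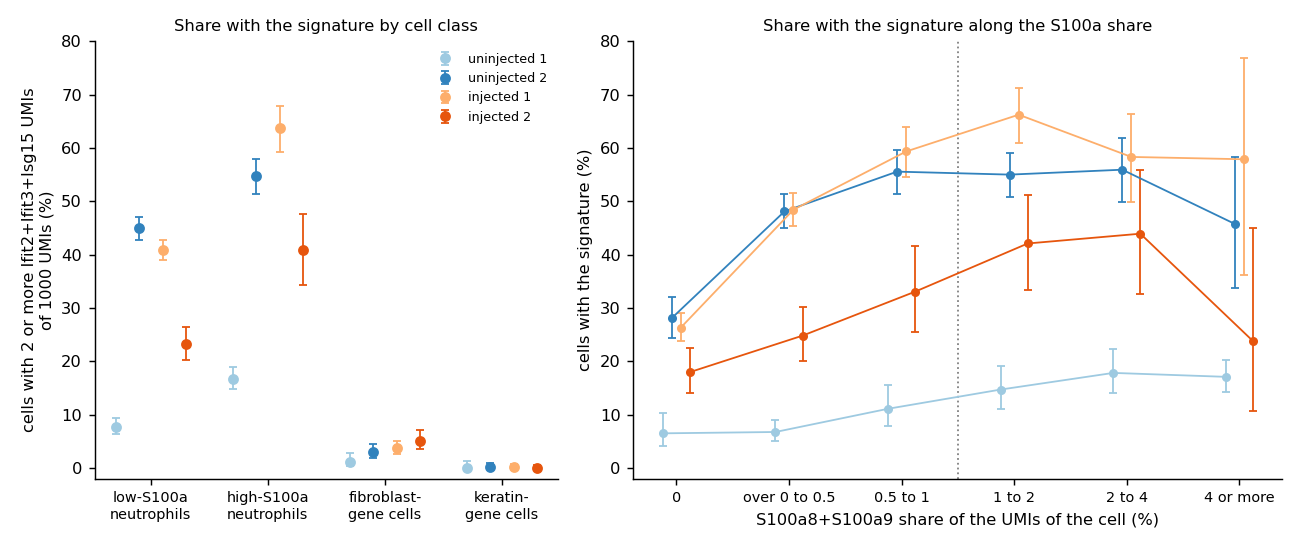
Left, the percentage of cells with at least 2 UMIs of Ifit2, Ifit3 and Isg15 among 1000 drawn UMIs, by cell class and library, with 95% Wilson intervals (counting error only). Right, the percentage in neutrophils of the same thinned cells by their share of S100a8 and S100a9 UMIs, 1 line per library, with a dotted line at the 1% limit of the rule. Uninjected 1 is lowest among the neutrophil classes at 7.73% and 16.7%, and keratin-gene and fibroblast-gene cells stay at or under 5.10%.

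Free RNA of the 3 genes was measured in droplets without cells. In droplets with at most 100 UMIs, taken as empty, the 3 genes reached 119, 371, 311 and 162 CPM (UMIs of a gene scaled to a library total of 1000000) in uninjected 1, uninjected 2, injected 1 and injected 2. A signature cell of median depth filled at that rate would hold 0.132, 0.552, 0.441 and 0.232 UMIs, and 0.802%, 10.6%, 7.30% and 2.32% of such cells would pass the limit of 2. The observed shares were higher than these in all 4 libraries, and how many of the cells with exactly 2 UMIs held only free RNA was not tested. After thinning to 1000 UMIs, the share was at most 0.276% in keratin-gene cells and 1.12% to 5.10% in fibroblast-gene cells. Those cells had a median of 15115.5 UMIs or more before thinning, against 1041 to 1435 in low-S100a neutrophils. The same amount of free RNA would be a smaller part of their UMIs, so their shares are no measure of it in neutrophils.

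The signature was more frequent in cells with more S100a8 and S100a9 within the low-S100a class. These shares are again of cells thinned to 1000 UMIs, grouped by their S100a8 and S100a9 share before thinning. In cells with no S100a8 or S100a9 UMI, 6.50%, 28.1%, 26.3% and 18.0% had 2 or more interferon-gene UMIs in uninjected 1, uninjected 2, injected 1 and injected 2. Between 0.5% and 1% the shares were 11.1%, 55.6%, 59.4% and 33.1%, above those without S100a8 and S100a9 in all 4 libraries. Between 1% and 2%, just outside the low-S100a limit, they were 14.7%, 55.0%, 66.3% and 42.1%, so the limit did not mark a step. No test was made, since the rule used these genes. Of all 2987 signature cells, counted without thinning, 755 had no S100a8 or S100a9 UMI.

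Ifit3 carried most of the choice. In signature cells it gave 22656 UMIs, against 2644 of Isg15 and 1214 of Ifit2, a comparison of captured molecules and not of length-corrected levels. Ifit3 stood at 1540, 5167, 4803 and 3967 CPM in uninjected 1, uninjected 2, injected 1 and injected 2, and at least 1 Ifit3 UMI was present in 81.9%, 98.1%, 97.6% and 96.2% of signature cells. Isg15 stood at 761, 508, 580 and 369 CPM, and Ifit2 at 120, 335, 221 and 119 CPM. These CPM are scaled to total UMIs only. Uninjected 1 had the lowest Ifit3, and the order of Isg15 depended on the scaling, with TMM-scaled values of 660, 577, 661 and 360 CPM. In 63.8%, 55.8%, 57.0% and 64.6% of signature cells only 1 of the 3 genes was detected, and all 3 were detected in 3.72%, 8.82%, 7.85% and 4.64%. G0s2, a neutrophil inhibitor of fat breakdown, was detected in 97.3%, 95.8%, 97.6% and 97.9%.

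Many signature cells lay close to the limit. The sum over the 3 genes had a median of 3, 6, 5 and 4 UMIs in uninjected 1, uninjected 2, injected 1 and injected 2, and a maximum of 28, 94, 115 and 64. Exactly 2 UMIs, just inside the limit, were held by 88, 217, 310 and 68 signature cells. Exactly 1, just outside, was held by 259, 371, 480 and 137 low-S100a neutrophils. Sums of 10 or more occurred in 10, 367, 397 and 56 cells, which is 5.32%, 32.7%, 27.6% and 23.6% of the signature cells.

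The 14 neutrophil markers include G0s2, Il1r2, S100a8 and S100a9, which the rule used, so their presence was in part fixed by the choice of cells. Of the 14, 12 to 14 had at least 1 UMI over the pooled signature cells of each library, at very different frequencies. Clec4d, a C-type lectin receptor of myeloid cells, was detected in 71.8%, 86.0%, 89.9% and 74.3% of signature cells in uninjected 1, uninjected 2, injected 1 and injected 2. Trem1, an amplifying receptor of neutrophils and monocytes, was detected in 30.3%, 71.9%, 67.7% and 57.8%, and Il1r2, the decoy receptor of interleukin 1, in 44.7%, 72.9%, 69.9% and 45.1%. Csf3r, the receptor of the granulocyte growth factor, was detected in 7.58% to 9.70% and Cxcr2, the receptor of Cxcl1, in 1.60% to 4.81%. Fpr2, a formyl peptide receptor, was detected in 0.844% to 2.67%, Fpr1, its relative, gave 1 UMI in all, and Hdc, which makes histamine, gave 10. The eosinophil genes Epx and Prg2 had 0 UMIs, while the 2 other genes of that list, Siglec5 and Ccr3, gave 108 and 48. The B cell gene Ms4a1 had 0 UMIs and Cd79a had 3.

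Markers of other cell types were present and did not all run the same way. The 11 monocyte or macrophage markers summed to 344, 686, 576 and 245 CPM in signature cells and to 345, 870, 1038 and 660 CPM without the signature. The 7 dendritic cell markers, which include MHC class II genes, summed to 508, 2347, 916 and 999 CPM in signature cells against 359, 425, 432 and 295 CPM. The 4 keratinocyte markers summed to 1022, 246, 245 and 607 CPM and the 4 fibroblast markers to 110, 265, 361 and 411 CPM in signature cells. Krt5 was detected in 54.8% of them in uninjected 1 and in 28.5% to 34.2% in the other libraries. Of the 2987 signature cells, 226 held 2 or more UMIs of other-cell markers, and Scrublet removed 209 as likely doublets. The part of these cells in the differences below was measured by leaving them out.

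Libraries differed in ways the groups do not explain. Total UMIs per library ran from 75823418 to 105605297, and the median signature cell had 1111.5 UMIs in uninjected 1 against 1419.5 to 1489 in the other libraries. Ribosomal protein genes took 7.73% of the UMIs of signature cells in uninjected 1 and 1.09% to 1.86% in the others. Injected 2 had the fewest cells, 6578 against 9537 to 10859. Only 16 signature cells had a barcode that also occurred in another library, and no barcode was shared between signature cells of different libraries. The part of these differences in the results was not tested other than by leaving out each library.

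To ask what else differed in the signature cells, their summed counts were compared with those of low-S100a neutrophils without the signature in the same 4 libraries. With edgeR's quasi-likelihood test and the library as a block, 179 of 6297 genes passed an adjusted p of 0.05, 2.84%, with 71 higher (1.13%) and 108 lower (1.72%). The cells of each pair shared 1 library, so library differences cancel, but the cells were split by transcripts of the same cells, and genes detected together with the rule genes are favoured by that split. Without injected 1 the count was 60, without uninjected 2 it was 88, and without the library block it was 0 (177 at an unadjusted p under 0.05; DESeq2 with the block called 150).

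Genes of the interferon response rose in signature cells. Of 59 antiviral effector genes in the files, 34 passed the filter on low counts, and of these 18 were higher and 0 lower, against 1.13% of all genes higher, and 32 had a positive log2 difference, with a list median of 0.98 against -0.01 over all genes tested. The antiviral count was 8 of 28 without injected 1 and 0 without the library block, where the median was 1.05. In cells thinned to 1000 UMIs it was 16 of 25, with doublets removed 19 of 29 and with cells holding other-cell markers left out 18 of 27. For thinned cells in this and the later tests across genes, the rule was applied again to the drawn UMIs. Cells could thereby change class, and cells under 1000 UMIs were left out. Among signature cells and their counterparts that had no S100a8 or S100a9 UMI at all, 7 of 20 were higher with a median of 0.71.

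Transcripts of interferon ligands were all but missing from the signature cells. Of 11 interferon ligand genes, 0 passed the filter on low counts. Ifnb1, Ifng, Ifna1, Ifnl1 and Ifnl3 had 0 UMIs in the 2987 signature cells, which allows a share of up to 0.100% of cells with a UMI, and Ifnk, the keratinocyte interferon, had 1. In all 8051 low-S100a neutrophils, with and without the signature, Ifnb1 had 5 UMIs and Ifnk 13, and Ifng, Ifna1, Ifnl1 and Ifnl3 had 0. Over all 36892 cells Ifnb1 had 13 UMIs, Ifng 63, Ifnl1 33, Ifnl3 69 and Ifnk 6326.

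Receptors and signal carriers changed little beside the targets. Of 12 genes for interferon receptors and JAK-STAT signalling, 1 was higher, Stat2. Its levels were 12.8, 18.0, 25.8 and 26.2 CPM without the signature and 19.3, 37.4, 50.5 and 49.1 CPM in signature cells of uninjected 1, uninjected 2, injected 1 and injected 2 (log2 difference 0.92, SE 0.21, adjusted p = 0.03312). The receptor genes Ifnar1 and Ifnar2 had log2 differences of -0.13 (SE 0.14) and 0.04 (SE 0.17), and neither passed. Irf9, an interferon regulatory factor that works with Stat2, had a log2 difference of 0.80 with an SE of 0.42 and did not pass.

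Irf7 was the 1 called gene of 7 interferon regulatory factors tested and had the smallest p outside the rule genes. Without the signature it stood at 31.3, 147, 134 and 76.0 CPM in uninjected 1, uninjected 2, injected 1 and injected 2. In signature cells it stood at 149, 748, 801 and 514 CPM. Every library's signature cells were higher, and the signature cells of uninjected 1, the lowest, lay just above the highest value without the signature. The log2 difference was 2.49 (SE 0.12, adjusted p = 1.017e-07). Irf1, which interferon gamma strongly induces, had a log2 difference of 0.08 (SE 0.13) and did not pass.

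RNA-binding and antiviral proteins followed. Samd9, a restriction factor that blocks translation, stood at 28.7, 39.4, 47.2 and 46.1 CPM without the signature and at 122, 163, 264 and 161 CPM with it (log2 difference 2.14, SE 0.16). Ifit1bl, an IFIT family member, stood at 24.5, 56.0, 61.4 and 69.8 CPM against 63.6, 281, 313 and 143 CPM (1.89, SE 0.21). Ifitm1, a membrane protein that hinders virus entry, stood at 1141, 1284, 1065 and 977 CPM against 1716, 2451, 1948 and 1617 CPM (0.78, SE 0.09). For Samd9 and Ifitm1 the values with and without the signature did not overlap across the 4 libraries, whereas for Ifit1bl the signature cells of uninjected 1 lay below injected 2 without it.

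Other effectors that rose were Oas1a, Oasl, Rsad2, Eif2ak2, Cmpk2 and Parp14. Oas1a, which makes the oligoadenylates that switch on RNase L, stood at 0.377, 38.0, 40.4 and 48.6 CPM without the signature and at 16.6, 109, 150 and 65.4 CPM with it (1.55, SE 0.31), with 1 UMI in uninjected 1 without the signature. Oasl had a log2 difference of 1.06 (SE 0.14), Rsad2, which encodes viperin, 1.99 (SE 0.32), and Eif2ak2, the kinase PKR, 1.69 (SE 0.27). Cmpk2, a nucleotide kinase, reached 3.15 (SE 0.41) from 6, 2, 10 and 0 UMIs without the signature. Ifit1 had a log2 difference of 2.69 (SE 0.58) that rested on injected 1, with 124 CPM in its signature cells against 2.76, 6.90 and 16.4 CPM in those of uninjected 1, uninjected 2 and injected 2. Genes of the Ifit and Oas families are similar copies, so reads could be split between them.

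Enzymes of ISG15 conjugation and GTPases of cell-autonomous defence also rose. Of 3 tested ISG15 conjugation genes, 2 were higher: Herc6, the rodent ISG15 ligase, at 7.17, 20.1, 21.9 and 8.72 CPM without the signature and 24.9, 66.7, 130 and 28.0 CPM with it (2.07, SE 0.23), and Usp18, which removes ISG15 and damps the receptor (1.71, SE 0.30). Igtp, a GTPase that interferon gamma also induces, stood at 3.77, 7.61, 12.7 and 12.5 CPM against 30.4, 68.4, 75.6 and 81.8 CPM (2.82, SE 0.23), with no overlap. Gbp2, a guanylate-binding protein, had a log2 difference of 1.43 (SE 0.25). Ifih1, the RNA sensor MDA5, was higher (1.35, SE 0.30) and Ikbke, a kinase of the sensing pathway, lower (-0.80, SE 0.19), among 6 sensor genes tested.

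Antigen presentation by MHC class I ran higher with smaller differences. All 16 tested genes of the pathway had a positive log2 difference, with a median of 0.50, and 5 passed. Psmb9, an immunoproteasome subunit, stood at 23.8, 62.2, 55.5 and 31.1 CPM without the signature and at 35.9, 121, 164 and 103 CPM with it (1.25, SE 0.19), higher in 4 of 4 libraries. Psmb8 had a log2 difference of 1.34 (SE 0.25), Tap1, the peptide transporter, 1.30 (SE 0.25), RT1-S3, a class Ib molecule, 2.17 (SE 0.21), and B2m, the light chain, 0.35 (SE 0.08). Without injected 1, and also without uninjected 2, 2 genes passed. Rat RT1 genes are near-identical copies, so their separate counts are uncertain.

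**Figure D2:**
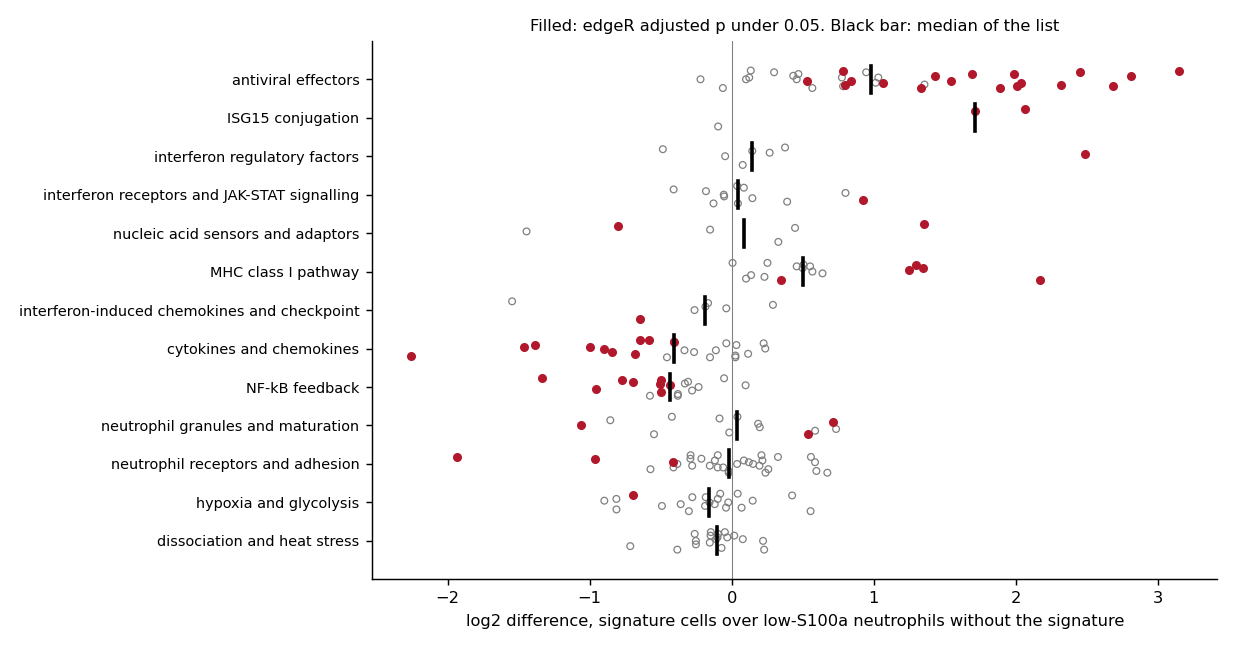
Log2 difference of signature cells over low-S100a neutrophils without the signature for the genes of each list, where filled points have an edgeR adjusted p under 0.05, open points do not, and the bar is the list's median. The antiviral effectors lie mostly above 0 with a median of 0.98, and the cytokine and NF-kB feedback lists lie mostly below it, with medians of -0.40 and -0.43.

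Inflammatory cytokines and chemokines ran the other way. Of 23 tested, 10 were lower and 0 higher in signature cells, against 1.72% of all genes lower, with a list median of -0.40. Il23a, the p19 subunit of interleukin 23, stood at 2532, 2397, 5623 and 9497 CPM without the signature and at 868, 763, 2916 and 3544 CPM with it in uninjected 1, uninjected 2, injected 1 and injected 2. It was lower in 4 of 4 libraries (log2 difference -1.39, SE 0.11, adjusted p = 1.874e-05), although both injected libraries with the signature stayed above both uninjected libraries without it. Cxcl1, a neutrophil attractant, fell from 11365, 20487, 41195 and 44317 CPM to 8020, 10295, 20575 and 20760 CPM (-0.90, SE 0.10, adjusted p = 0.0002579). Cxcl3, of the same family, fell from 16584, 22609, 36685 and 21897 CPM to 8631, 14813, 22401 and 10231 CPM (-0.84, SE 0.09). Cxcl1 and Cxcl3 were lower within each library, while their levels overlapped between libraries.

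Further members of the list fell by less or from few molecules. Ccl3, a chemokine for monocytes, had a log2 difference of -0.58 (SE 0.07), Il1a -0.65 (SE 0.11) and Il1b -0.41 (SE 0.09). Ccl2, the main monocyte attractant, which stands on the list of interferon-induced chemokines, was also lower, at -0.64 (SE 0.09). Tnf reached -2.26 (SE 0.29) but gave 2, 3, 18 and 4 UMIs in signature cells. Csf3, the granulocyte growth factor, had -1.46 (SE 0.19), with 54.9% of its UMIs in 10 signature cells. Il6 was lower (adjusted p = 0.02902), with 71, 68, 156 and 44 UMIs without the signature and 2, 51, 86 and 9 with it. Among cells with no S100a8 or S100a9 UMI, 4 of 21 were lower, and Cxcl1 stood at -0.88, Cxcl3 at -0.78 and Il23a at -1.38. After thinning, 9 were lower and 2 higher, Ccl6 and Osm, and 2 calls were lost, Csf3 at -0.40 (adjusted p = 0.242) and Il6 at -0.34 (adjusted p = 0.5676).

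Genes that NF-kB induces to limit itself also fell in part. Of 17 tested, 8 were lower and 0 higher, with a median of -0.43 and a negative value in 16. Nfkbia, the inhibitor that holds NF-kB in the cytosol, stood at 6506, 13935, 21000 and 21468 CPM without the signature and at 4972, 10136, 16766 and 14668 CPM with it (-0.43, SE 0.07). Tnfaip3, the ubiquitin-editing enzyme A20, had a log2 difference of -0.77 (SE 0.13). The count was 2 without injected 1, 3 without uninjected 2, 4 with doublets removed and 1 among cells with no S100a8 or S100a9 UMI.

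Adhesion and matrix genes were mixed. Icam1, an adhesion molecule that binds leukocyte integrins, stood at 903, 791, 2153 and 3201 CPM without the signature and at 417, 389, 1377 and 1498 CPM with it (-0.96, SE 0.10, adjusted p = 0.0002271). It was lower in 4 of 4 libraries. Of 31 neutrophil receptor and adhesion genes, 3 were lower and 0 higher. After thinning, with the classes drawn again, 3 were lower and 5 higher, beside 149 lower and 181 higher of 4182 genes in all. The cause of this change was not tested. Mmp9, the gelatinase of tertiary granules, was lower (-1.06, SE 0.13), while Lyz2, lysozyme, was higher (0.71, SE 0.09) and Serpinb1a, an inhibitor of granule proteases, was higher (0.79, SE 0.09). Among cells with no S100a8 or S100a9 UMI, Lyz2 stood at 0.31 (adjusted p = 0.374) and Mmp9 at -0.60 (adjusted p = 0.1023), and neither passed. Cd14, the endotoxin co-receptor, was lower (-1.93, SE 0.35), at 460 CPM in injected 1 without the signature against 80.4 CPM with it. Ptgs2, the prostaglandin-producing enzyme, was lower (-0.70, SE 0.11). Of 18 dissociation and heat-stress genes, 0 passed.

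**Figure D3:**
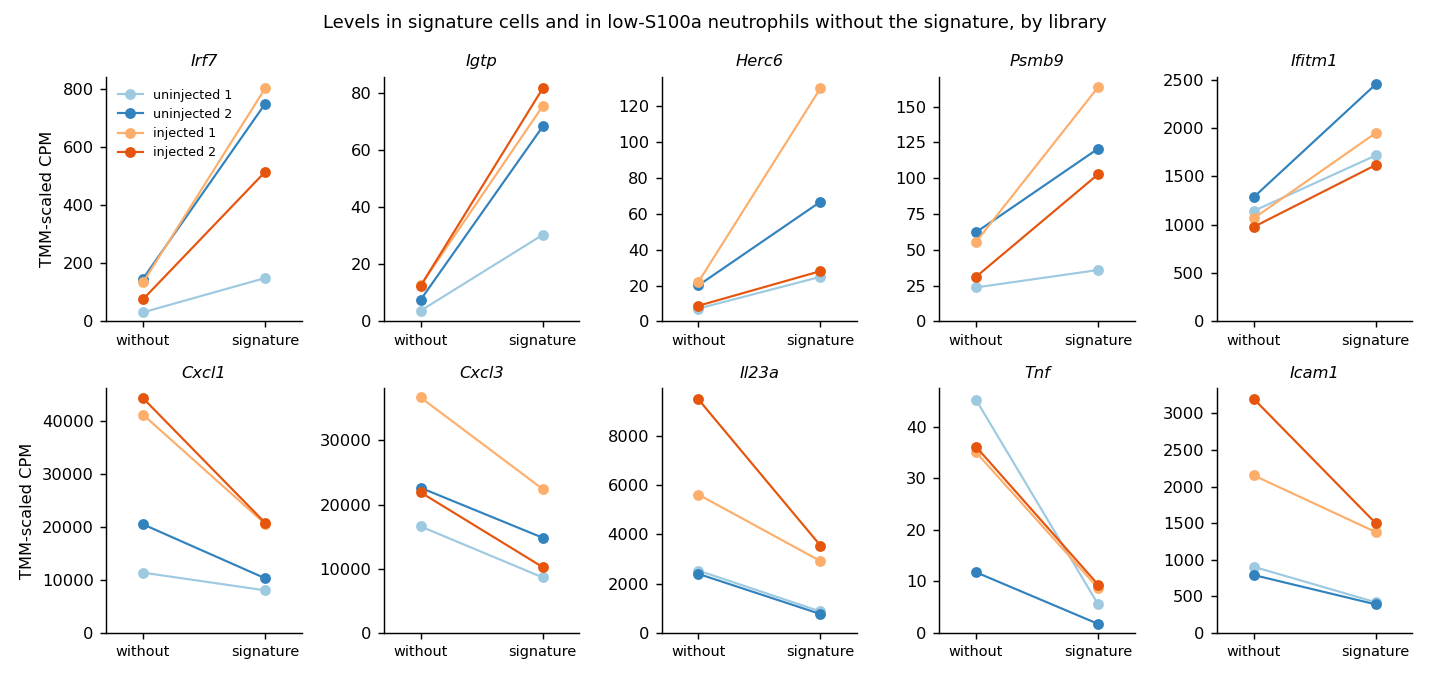
CPM of 10 genes in low-S100a neutrophils without the signature and in signature cells, with a line joining the same library. Irf7, Igtp, Herc6, Psmb9 and Ifitm1 are higher and Cxcl1, Cxcl3, Il23a, Tnf and Icam1 lower in the signature cells of all 4 libraries.

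MHC class II genes did not give a stable direction. Cd74, the class II invariant chain of dendritic and B cells, stood at 138, 183, 207 and 153 CPM without the signature and at 251, 1026, 335 and 428 CPM with it (log2 difference 1.39, SE 0.23, adjusted p = 0.005922). RT1-Da and RT1-Ba, class II chains, had 1.50 and 1.75. Of their UMIs in signature cells, 73.7% (Cd74), 77.9% (RT1-Da) and 78.9% (RT1-Ba) came from 10 cells. After thinning each cell to 1000 UMIs, with the classes drawn again, the differences were -1.02, -1.06 and -1.26 in the same order. All passed the threshold in the opposite direction. How much of this came from cells changing class was not tested.

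The differences graded with the number of interferon-gene UMIs and did not begin at the limit of 2. Low-S100a neutrophils with 0 such UMIs had Irf7 at 27.9, 101, 82.0 and 55.0 CPM in uninjected 1, uninjected 2, injected 1 and injected 2. Cells with 1, just outside, had 81.4, 187, 197 and 113 CPM, and cells with 2, just inside, had 124, 256, 294 and 257 CPM. Cells with 10 or more had Irf7 at 307, 1344, 1349 and 1033 CPM. In uninjected 1 the value at 5 to 9 UMIs, 399 CPM, was above that at 10 or more, while in the other 3 libraries each step was above the last. These groups come from the rule's own counts, are scaled to their own total UMIs and are given without a test.

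The lower genes ran the other way. Il23a stood at 3030, 2412, 5073 and 9054 CPM in cells with 0 interferon-gene UMIs and at 418, 546, 1617 and 825 CPM in cells with 10 or more. Cxcl1 went from 13246, 19711, 38556 and 42883 CPM to 3180, 6935, 11802 and 11260 CPM, and Icam1 from 1039, 741, 1891 and 2962 CPM to 251, 289, 950 and 801 CPM. The group with 10 or more held 10 cells in uninjected 1, so its values there rest on few molecules, such as 9 Icam1 UMIs. Mmp9 in that library was 429 CPM at 0 UMIs and 363 CPM at 10 or more, while in uninjected 2 it was 231 and 57.1 CPM.

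**Figure D4:**
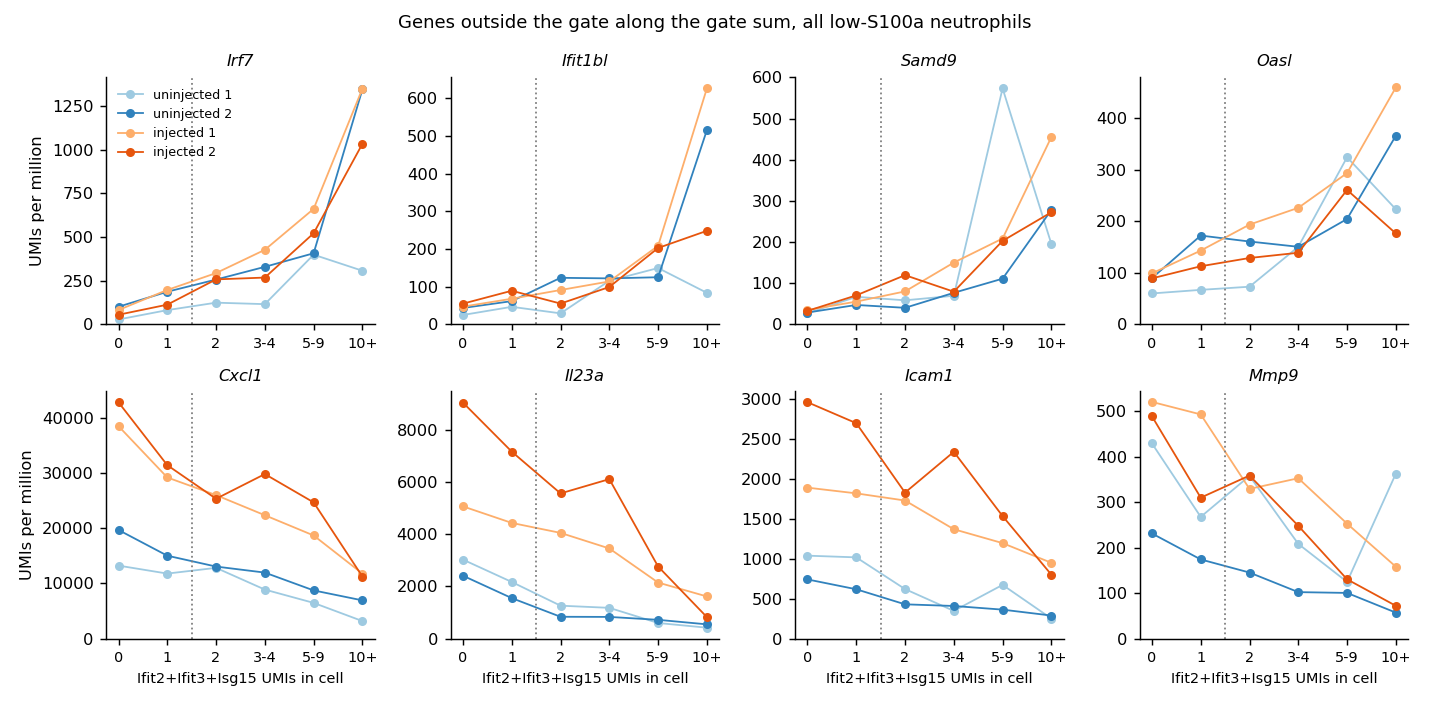
CPM of 8 genes in low-S100a neutrophils grouped by their summed UMIs of Ifit2, Ifit3 and Isg15, 1 line per library, with a dotted line at the limit of the rule. Irf7 climbs from 27.9 to 101 CPM at 0 UMIs to 307 to 1349 CPM at 10 or more, and Cxcl1 descends from 13246 to 42883 CPM to 3180 to 11802 CPM.

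The signature cells were not uniform. In cells thinned to 1000 UMIs, 14.8%, 31.6%, 35.2% and 32.3% of them had an Irf7 UMI in uninjected 1, uninjected 2, injected 1 and injected 2. Those with Irf7 had on average 3.50, 4.54, 5.37 and 4.34 other antiviral effector genes detected, and those without it 3.11, 3.01, 3.60 and 2.97. Across all thinned signature cells the mean was 3.16, 3.49, 4.22 and 3.41, against 2.63, 2.40, 2.54 and 2.45 without the signature. Cxcl3 was lower in cells with Irf7 in all 4 libraries, at 9889, 12033, 16673 and 9606 CPM against 14423, 15555, 24069 and 13577 CPM. Other inflammatory genes did not all run that way: Il23a was higher with Irf7 in uninjected 1 (1389 against 1298 CPM) and uninjected 2 (949 against 603 CPM) and lower in both injected libraries. Cxcl1 was lower with Irf7 in 3 libraries and stood at 24268 against 24248 CPM in injected 2. Icam1 was lower in uninjected 1 and injected 1 and higher in the other 2 libraries. These cells share their libraries and are described without a test.

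To see what set the signature cells apart from more S100a-rich neutrophils, they were compared with the high-S100a class in the same way. Both comparisons share the signature cells. With edgeR's quasi-likelihood test, 865 of 4949 genes passed, 17.5%, with 325 higher (6.57%) and 540 lower (10.9%) in signature cells. The S100a8 and S100a9 limit chose both classes, so genes that follow calprotectin were bound to differ. The count depended on the settings: 239 in thinned cells, 323 with doublets removed, 417 with other-cell-marker cells left out, 367 without uninjected 2 and 464 without injected 1, and 1 without the library block.

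Granule and maturation genes were lower in signature cells than in high-S100a neutrophils. Of 13 tested, 8 were lower and 1 higher, with a median of -0.93. Mmp8, the neutrophil collagenase, stood at 177, 783, 778 and 850 CPM in high-S100a neutrophils and at 19.3, 109, 99.7 and 57.4 CPM in signature cells (log2 difference -3.11, SE 0.16, adjusted p = 2.009e-09). The groups of Mmp8 values did not overlap. Retnlg, a resistin-like protein of neutrophils, had a log2 difference of -3.27 (SE 0.23), Pglyrp1, a peptidoglycan-binding protein, -2.16 (SE 0.16), Lyz2 -1.07 (SE 0.09) and Alox5ap, which leukotriene synthesis needs, -1.62 (SE 0.11). Without injected 1, 5 were lower.

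Receptor and stress genes were lower too, but fewer passed in thinned cells, where both classes were drawn again. Of 30 receptor and adhesion genes 11 were lower, against 10.9% of all genes, among them Csf3r (-0.72, SE 0.18) and Cxcr2 (-0.90, SE 0.26), and 1 was higher, Cd14. Of 18 dissociation and heat-stress genes 13 were lower. In thinned cells 1 of 28 receptor genes and 3 of 18 stress genes were lower, beside 151 of 3370 genes in all, and with doublets removed 2 of 30 and 5 of 18. Without uninjected 2, 5 receptor genes and 6 stress genes were lower, and without injected 1 the receptor count was 6.

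Few genes of the interferon response passed against high-S100a neutrophils. Irf7 stood at 101, 715, 861 and 570 CPM in high-S100a neutrophils and at 149, 684, 768 and 506 CPM in signature cells on the scale of this comparison (log2 difference -0.01, SE 0.12, adjusted p = 0.9634). CPM are scaled within each comparison, so a gene's level differs slightly between comparisons. Of 30 antiviral effectors 2 were higher, Gbp2 (0.62, SE 0.20) and Slfn13 (0.81, SE 0.26), and 3 lower, with a median of -0.02, shares near the 6.57% and 10.9% of all genes. Of 15 MHC class I genes 4 were lower, all RT1 genes, and 0 higher; in thinned cells 0 of 14 passed. Oas1a was lower (-1.16, SE 0.21), as were Ifit1bl (-0.53, SE 0.16) and Ifitm1 (-0.43, SE 0.10), and after thinning Ifit1bl stood at 0.01 and Ifitm1 at 0.05. High-S100a neutrophils were taken here whether or not they held the 3 interferon-gene transcripts.

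The chemokines that were lower in signature cells than in their low-S100a counterparts did not pass against high-S100a neutrophils. Cxcl1 had a log2 difference of 0.06 (SE 0.10, adjusted p = 0.7019), Cxcl3 0.03 (SE 0.12), Il23a -0.13 (SE 0.20) and Icam1 -0.01 (SE 0.14). These values did not pass, which does not show that the levels were equal. Ccl4, a chemokine for monocytes and T cells, was higher (0.84, SE 0.16), and Osm, oncostatin M, a cytokine of the interleukin 6 family, was lower (-0.97, SE 0.13).

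The design compares injected with uninjected wounds, and in the signature cells no gene passed. Of 5606 genes tested with edgeR's quasi-likelihood test, 0 passed an adjusted p of 0.05, 0.0%, with 178 at an unadjusted p under 0.05 and 1 called by DESeq2. Without uninjected 2 the count was 308 and without uninjected 1 it was 32. It was 3 once injected 1 was left out and 0 once injected 2 was. Each of these fits left 1 group with 1 library, whose spread was taken from the other group. With no filter on low counts the count was 39.

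The genes with the smallest unadjusted p are given by their values, with an adjusted p of 0.9994 for each. Ccrl2, a receptor that binds chemerin without signalling, stood at 353 and 289 CPM in the uninjected libraries and at 1441 and 1296 CPM in the injected ones (log2 difference 2.09, SE 0.51). Abca1, a cholesterol exporter, stood at 136 and 131 CPM uninjected and at 14.2 and 7.24 CPM injected (-3.51, SE 0.53). Arl5c, a small GTPase, stood at 86.9 and 93.0 CPM uninjected and at 506 and 533 CPM injected (2.53, SE 0.49). For these 3 genes the groups did not overlap, but they were chosen by their p, which favours such genes. How many of all genes tested did not overlap was not counted. The lower injected value of Abca1 came from 3 UMIs.

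Some of the genes that were lower in signature cells had higher values in the injected libraries. Il23a stood at 909 and 797 CPM in uninjected and at 3067 and 3662 CPM in injected signature cells (1.98), and Icam1 at 437 and 406 against 1449 and 1547 CPM (1.83). Cxcl1 stood at 8405 and 10751 against 21643 and 21448 CPM (1.17). None of these passed. Ptgs2 (-0.26), Cxcl3 (0.48), Mmp9 (0.52) and Cd14 (0.70) overlapped between the groups. All 17 NF-kB feedback genes tested had a positive difference, with a median of 0.79 against -0.05 over all genes. So did 19 of 20 hypoxia and glycolysis genes, with a median of 0.45. Other lists leaned the same way, so this was not particular to these 2. Positive were 26 of 37 antiviral effectors (median 0.42), 23 of 30 receptor and adhesion genes (0.35) and 11 of 15 survival and death genes (0.39). Granule and maturation genes (6 of 13, median -0.02) and dissociation and heat-stress genes (7 of 18, -0.30) did not lean that way. No gene of these lists passed.

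The 3 interferon-induced genes of the rule and Irf7 overlapped between the groups. Over all low-S100a neutrophils, where the signature chose nothing, Ifit3 stood at 198 and 3106 CPM in uninjected 1 and 2 and at 2747 and 1361 CPM in injected 1 and 2. Isg15 stood at 90.2, 303, 334 and 133 CPM and Ifit2 at 21.4, 210, 129 and 44.5 CPM in the same order. Irf7 stood at 43.1, 466, 475 and 223 CPM (0.46). In all 4 genes uninjected 1 was lowest and the injected values lay within the uninjected range or just past its upper end. Some other interferon-induced genes, among those with the smallest unadjusted p, did not overlap in the signature cells. The share of all genes without overlap was not counted. Rtp4, an interferon-induced gene, stood at 2.90 and 2.40 CPM uninjected and at 44.0 and 9.66 CPM injected (3.49), and Ifi44 at 5.79 and 3.60 against 46.1 and 12.1 CPM (2.87). Ifit1 had 131 and 16.9 CPM injected and less in both uninjected libraries (3.68). None passed (adjusted p = 0.9994 each in edgeR), and uninjected 1 held 1 Rtp4, 2 Ifi44 and 1 Ifit1 UMIs. Over all low-S100a neutrophils Cxcl10, a chemokine that interferon gamma induces, stood at 56.6 and 53.9 CPM uninjected and at 135 and 93.8 CPM injected (1.05) without overlap.

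Of 44 antiviral effectors in all low-S100a neutrophils, 32 had a positive difference, with a median of 0.55 against -0.08 over all genes, and 0 passed. No gene of 8145 passed in that comparison (0.0%), with 379 at an unadjusted p under 0.05 and 4 called by DESeq2. Without uninjected 2 the count was 711, and without uninjected 1 it was 129. RT1-A2, a class I gene with near-identical copies, stood at 26.7 and 580 CPM uninjected and at 1750 and 2230 CPM injected (2.71), and Ccrl2 at 385 and 342 against 1596 and 1685 CPM (2.18). These pooled values mix cells with and without the signature, whose shares differ between libraries, so they move with those shares.

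**Figure D5:**
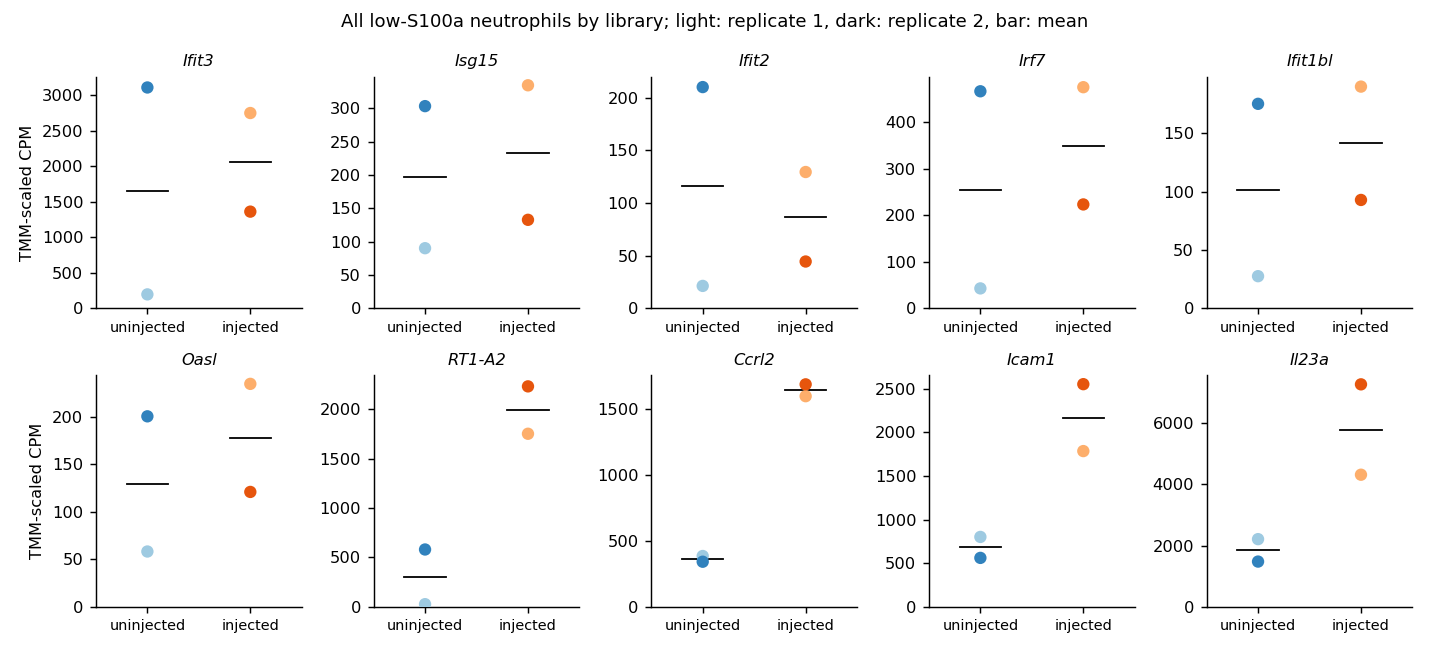
CPM of 10 genes in all low-S100a neutrophils by library, with replicate 1 light, replicate 2 dark and a bar at each group's mean. Ifit3, Isg15, Ifit2 and Irf7 are lowest in uninjected 1 and overlap between groups, while Ccrl2, Icam1 and Il23a are higher in both injected libraries.

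Whether injection went with a different change in signature cells than in low-S100a neutrophils without the signature was tested as an interaction. Of 7729 genes 11 passed in edgeR's quasi-likelihood test, 0.142%, 8 higher (0.104%) and 3 lower (0.0388%), and DESeq2 called 1. None was an antiviral effector. In all 11 at least 45.7% of the UMIs in signature cells came from 10 cells, and in thinned cells 3 other genes passed. Without 1 library the count ran from 21 to 75.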

How the data were processed

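Single-cell RNA-seq of 4 libraries was deposited as 10x Genomics matrices of UMI counts per gene and barcode, not normalized; Cell Ranger 7.2.0 is named per the file headers and 5.0.1 per the submitters' processing notes. No source used here gives the genome build or annotation. Matrices held all barcodes, and the cells were chosen by the stated rule. The cells and gene lists were chosen with earlier results of these data known.

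Counts were summed per library and class and tested with edgeR 4.0.16 (R 4.3.3, limma 3.58.1) after TMM scaling and filterByExpr, with glmQLFit and glmQLFTest and Benjamini-Hochberg adjustment over all genes tested. The comparisons within libraries had the library as a block, and those between groups had none. CPM from these tests are TMM-scaled; CPM of rule genes, markers, empty droplets, thinned cells and interferon-UMI groups are scaled to total UMIs only. Shares were compared over libraries with an exact two-sided permutation test (scipy 1.17.1). Doublets were sought with Scrublet in scanpy 1.11.5 at 0.8% per 1000 cells and removed only as an alternative. Scripts were tested on simulated data. Genes named were those of the lists, plus up to 12 with the smallest p in each direction among those called, or 6 each where fewer than 3 passed. Alternatives were DESeq2 1.42.0, median-ratio size factors, no low-count filter, thinned cells, doublets or other-marker cells left out, 3 or more interferon UMIs, replicate or library blocks, and each library left out. In the edgeR alternative with thinned cells, the rule was applied again to the drawn UMIs before counts were summed. Added after seeing the data were crossed replicate numbers, shared barcodes left out, and cells with 0 S100a8 and S100a9 UMIs. Motifs were searched in RefSeq GRCr8 promoters matched by symbol. A few genes of the lists are not reported here.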

Additional observations from a re-analysis of the deposited data

Results flagged for a closer look

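There were 11 genes with an injection difference that itself differed between signature cells and low-S100a neutrophils without the signature, by the interaction term of edgeR's quasi-likelihood test. Each value below is the log2 injection difference in signature cells minus that without the signature.

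In 8 genes it was higher in signature cells. Icos, a costimulatory receptor of T cells, had 5.10 (adjusted p = 0.003112), with 88.9% of its UMIs in 10 signature cells. Camk4, a kinase abundant in T cells, had 3.75 with 91.9% in 10 cells, and Rora, a nuclear receptor of lymphoid and skin cells, had 2.89 with 72.3%. Sbsn and Krtdap, genes of the differentiated epidermis, had 3.07 and 3.86, with 71.5% and 69.4% in 10 cells. Stfa3, a cysteine protease inhibitor, had 4.97 with 80.5%. Elovl4, a fatty acid elongase, had 9.70 from 11 UMIs in signature cells, and Shroom3, a cytoskeletal protein of epithelia, had 6.06 from 29 UMIs.

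Among low-S100a neutrophils without the signature, Stfa3 and Elovl4 were highest in uninjected 1. Stfa3 stood at 444 CPM there without the signature against 3.49 to 29.8 CPM in the other libraries, and Elovl4 at 381 CPM against 0 to 2.08 CPM. With other-marker cells left out the Stfa3 value was -0.236.

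In 3 genes it was lower. Alcam, an adhesion molecule, had -2.23 with 56.8% of its UMIs in 10 signature cells, Cd14 had -2.15 with 61.1%, and Mmp3, a matrix metalloprotease of fibroblasts, had -2.82 with 45.7%. Cd14 stood at 15.3, 74.4, 470 and 208 CPM without the signature and at 10.5, 48.0, 81.6 and 18.2 CPM with it in uninjected 1, uninjected 2, injected 1 and injected 2. In thinned cells 8 of the 11 genes could be tested and 0 of them passed. With doublets removed 8 of 11 passed, and with other-marker cells left out 5 of 10.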

How the results depend on the processing

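Signature cells over low-S100a neutrophils without the signature gave 179 calls with the stated settings, 304 with no filter, 330 with thinned cells, 0 without the library block, 61 with cells having no S100a8 or S100a9 UMI, and 60 to 173 with 1 library left out. Against high-S100a neutrophils the count of 865 became 323 with doublets removed, 239 with thinned cells, 417 with other-marker cells left out, 1 without the block, and 367 to 747 with 1 library left out. The interaction count of 11 became 1 by DESeq2, 47 with no filter, 23 with doublets removed, 3 with thinned cells, 7 with 3 or more UMIs, and 21 to 75 with 1 library left out. The injection count of 0 became 1 by DESeq2, 39 with no filter and 0 to 308 with 1 library left out in signature cells, and 4 by DESeq2 and 0 to 711 in all low-S100a neutrophils. The share difference of 5.70 points ran from -12.9 to 24.3, with -3.08 without injected 1. The causes were not tested.

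In thinned cells Cd74 (-1.02), RT1-Ba (-1.26) and RT1-Da (-1.06) over cells without the signature reversed and passed in the opposite direction. Against high-S100a neutrophils the sign changed for Cd24 (-0.04), Clec7a (0.073), Ifit1bl (0.007), Ifitm1 (0.054), Ncf4 (0.014), RT1-CE10 (0.032) and Trem3 (0.012). Those values lay near 0 and did not pass, with adjusted p of 0.7764 to 0.9866 in edgeR's quasi-likelihood test. With no S100a8 or S100a9 UMI the sign changed for Bnip3 (0.069) and Cd74 (-0.106), and with other-marker cells left out for Stfa3 in the interaction (-0.236). None of these passed.

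Same-numbered libraries had a correlation of deviations of -0.40 in signature cells and -0.42 in all low-S100a neutrophils. With 2 libraries per group the crossed value is the same with the other sign. It therefore cannot show whether the replicate numbers pair the libraries. With the replicate block 0 genes passed in either (80 and 176 at an unadjusted p under 0.05), and with crossed numbers 0 passed (411 and 790).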

Other observations

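Beside the groups above, a few survival and redox genes differed between signature cells and low-S100a neutrophils without the signature by edgeR's quasi-likelihood test. Of 15 survival and death genes tested, 1 was higher and 2 were lower, beside 1.13% and 1.72% of all genes tested. Cflar, an inhibitor of caspase 8, stood at 1104, 1064, 1942 and 1856 CPM without the signature and at 801, 723, 1338 and 1044 CPM with it in uninjected 1, uninjected 2, injected 1 and injected 2 (log2 difference -0.60, SE 0.09, adjusted p = 0.002859). Nlrp3, an inflammasome sensor, was lower (-0.37, SE 0.09) and Ripk3, a kinase of necroptosis, higher (0.80, SE 0.20). Gpx1, a peroxidase that removes hydrogen peroxide, stood at 110, 124, 118 and 113 CPM without the signature and at 158, 194, 195 and 187 CPM with it (0.65, SE 0.12), without overlap between the cell classes. Cflar values overlapped, with injected 1 and injected 2 above the uninjected libraries in each class.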
